A study of Mus musculus with 9 samples.

Results

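The genes described here mark the oligodendrocyte precursor and the first steps of its differentiation: Pdgfra, Cspg4, Olig1, Olig2, Sox10, Gpr17, Bcas1, Enpp6 and Myrf. They were taken by name, and all 9 were found among the 18138 genes of the deposited count table and passed the filter on low counts, which 14756 genes passed. The 9 RNA-seq libraries came from mouse brain, with 3 in each group. The first group is labelled control, the second had undergone occlusion of the middle cerebral artery (MCAO surgery, used to model ischaemic stroke), and the third received hypidone hydrochloride after the surgery, at 5 mg/kg for 7 days, and is called the hypidone group below. No strain, age, brain region, hemisphere, sham surgery, vehicle or time after the occlusion is given in the sources used here. Nothing in the labels ties each library to an animal of its own, and the p-values below measure only how these samples spread, in part perhaps for technical reasons. Each library carries its group's name with the last number of its title.

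Oligodendrocyte precursors are glial cells that divide and persist in the adult brain and give rise to the cells that form myelin. On the way they pass through a committed stage, then through a newly formed oligodendrocyte, before they make myelin proteins in quantity. Platelet-derived growth factor holds precursors in division through the receptor encoded by Pdgfra, and the transcription factors OLIG2 and SOX10 act through the whole lineage. In bulk tissue fewer cells of a type and less RNA per cell cannot be told apart. Some of these genes are also read from other cells: Pdgfra from fibroblasts and Cspg4 from pericytes.

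Promoters of 4 of the 9 genes were matched by symbol in RefSeq (GRCm38.p6), and 2 are shown as the 250 bases before the start: Pdgfra, which came nearest to the threshold in both comparisons with MCAO, and Enpp6, which varied most among libraries. Capitals mark the general E-box CANNTG, the kind of site that basic helix-loop-helix factors such as OLIG2 bind. The windows are chr5:75152001-75152250 for Pdgfra and chr8:46986637-46986886 for Enpp6, both on the plus strand.
Pdgfra: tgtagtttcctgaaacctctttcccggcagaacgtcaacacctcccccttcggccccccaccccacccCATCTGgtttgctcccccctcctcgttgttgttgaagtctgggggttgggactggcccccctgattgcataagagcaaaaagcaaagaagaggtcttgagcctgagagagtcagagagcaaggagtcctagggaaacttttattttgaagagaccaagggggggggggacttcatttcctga
Enpp6: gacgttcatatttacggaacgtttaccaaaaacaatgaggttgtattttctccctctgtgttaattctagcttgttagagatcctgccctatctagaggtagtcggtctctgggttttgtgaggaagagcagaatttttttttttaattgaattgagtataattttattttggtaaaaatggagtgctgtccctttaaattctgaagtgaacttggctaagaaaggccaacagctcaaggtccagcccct
The Pdgfra window held 1 match to CANNTG, and the windows of Enpp6, Cspg4 and Olig2 held 0, where 66.2% of 32817 promoter windows of this length held at least 1. Neither the narrower E-box CAGCTG, which lies within CANNTG and is found in 13.0% of all windows, nor ACAAAG, a site of the kind SOX factors bind, found in 16.5%, matched in any of the 4 windows. Both strands were searched. GC content was 54.4% in the Pdgfra window and 38.4% in the Enpp6 window, against a median of 52.4% over all windows. A match is a description of these letters, not a bound site.

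In the GENCODE M21 annotation (GRCm38), Pdgfra lies on chromosome 5 from 75152292 to 75198215 and Cspg4 on chromosome 9 from 56865033 to 56899870. Olig2 and Olig1 are neighbours on chromosome 16, from 91225457 to 91228677 and from 91269772 to 91271933, the start of Olig1 lying 41095 bases past the end of Olig2. Sox10 lies on chromosome 15 from 79154908 to 79165240, Bcas1 on chromosome 2 from 170346991 to 170427845, Enpp6 on chromosome 8 from 46986887 to 47096762 and Myrf on chromosome 19 from 10208272 to 10240748. Gpr17 lies on chromosome 18 inside the gene Lims2, on the opposite strand. Reads of Gpr17 and Lims2 may be mixed, since no handling of strand in the counting is given in the sources used here. Lims2 is the only gene of the count table that overlaps any of the 9 in this annotation.

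Library totals ran from 32075682 to 37325027 gene counts, of which the 9 genes took between 12294 and 26873. Neuron, astrocyte and mature myelin markers were present in every library, and all 16 other precursor genes listed for comparison had counts in every library. Control 5 and MCAO 5 stood apart from the rest of their groups. Control 5 held the summed level of 10 hippocampal neuron genes at 1177 CPM (the count scaled to a common library size, with TMM factors), against 360 to 572 CPM in the other 8 libraries. It was also the highest control for mature myelin, at 8137 CPM over 16 genes against 3816 and 4954 in control 4 and control 6. MCAO 5 held 12 microglia and macrophage genes at 4771 CPM and 9 fibroblast genes at 2149 CPM, against at most 1622 and 803 CPM in any other library.

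None of the 9 genes passed the test in any comparison of the groups. For MCAO against control, 0 of 9 were called (edgeR quasi-likelihood F test, with a Benjamini-Hochberg adjusted p below 0.05 over 14756 genes), where 20.4% of all tested genes were called, and 1 of 9 had an unadjusted p under 0.05, where 36.8% of all genes did. For hypidone against MCAO, 0 of 9 were called, where 16.5% of all genes were, and 2 had an unadjusted p under 0.05, where 34.9% did. For hypidone against control, 0 of 9 were called and 0 had an unadjusted p under 0.05. In that comparison edgeR called 0 of 14756 genes, 131 genes had an unadjusted p under 0.05 (0.888%), and DESeq2 called 1 gene. The median log2 fold change of the 9 genes was -0.05 for MCAO against control and -0.44 for hypidone against MCAO, beside 0.01 and -0.04 over all tested genes. Both comparisons share the MCAO libraries.

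**Figure D1:**
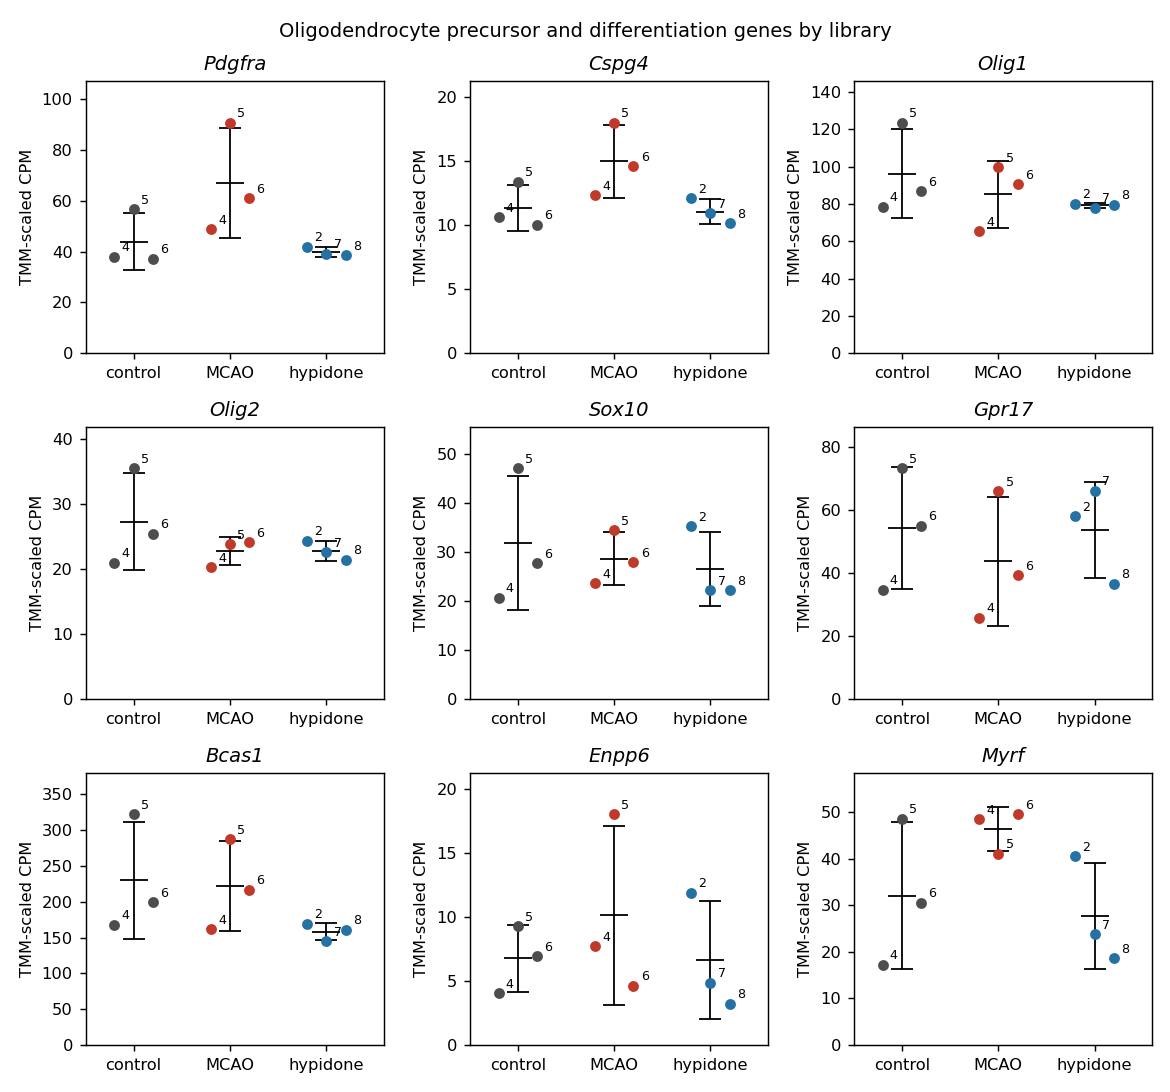
TMM-scaled CPM (vertical axes, from 0) of the 9 genes in each library, with the title number beside each point and the mean with SD (n = 3) as bars. Control 5 is the highest control for all 9 genes, and the MCAO and hypidone points do not overlap for Pdgfra, Cspg4 and Myrf.

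Per kilobase, Bcas1 and Olig1 were the most abundant of the 9 and Cspg4 and Enpp6 the least. FPKM values are read fragments per kilobase of the length the authors used for each gene, scaled for library size. That length is not given in the sources used here and is not the gene span listed above. In control libraries they were 63.0 ± 23.6 for Bcas1 and 44.0 ± 11.8 for Olig1 (SD, n = 3). The ranges of these genes overlapped each other, and that of Olig1 lay above that of the next gene. Sox10, Gpr17 and Olig2 followed at 11.7 ± 5.21, 10.4 ± 3.84 and 10.1 ± 2.93 FPKM, then Myrf and Pdgfra at 5.42 ± 2.74 and 5.30 ± 1.43, with each range overlapping the next. Cspg4 and Enpp6 stood below, at 1.39 ± 0.25 and 1.34 ± 0.54 FPKM, and overlapped each other. In the MCAO group Pdgfra, at 8.39 ± 3.22 FPKM, ranked above Myrf, at 7.99 ± 0.61, and these ranges overlapped.

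Within each group most of the 9 genes were highest in the same library. Control 5 was the highest control for 9 of 9 genes, where it was the highest control for 39.9% of all tested genes. MCAO 5 was the highest MCAO library for 7 of 9, against 43.0% of all genes, and MCAO 4 the lowest for 7 of 9, against 38.5%. Among the drug libraries hypidone 2 was the highest for 8 of 9, against 36.5%, and hypidone 8 the lowest for 7 of 9, against 34.9%. The 9 genes summed to 730 CPM in control 5, 679 in MCAO 5 and 391 to 529 elsewhere.

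Pdgfra, the growth factor receptor of precursors, had the lowest p of the 9 genes in both comparisons with MCAO. Its level was 37.9, 56.7 and 37.2 CPM in control 4, 5 and 6, 48.8, 90.7 and 61.1 CPM in MCAO 4, 5 and 6, and 41.9, 39.2 and 38.5 CPM in hypidone 2, 7 and 8. MCAO libraries thus lay above all hypidone libraries and above control 4 and control 6, while control 5 lay between MCAO 4 and MCAO 6. For MCAO against control the log2 fold change was 0.61 ± 0.24 (SE), with a 95% interval of 0.07 to 1.14 before adjustment over genes (edgeR adjusted p = 0.1001). The value for hypidone against MCAO was -0.75 ± 0.24, with an interval of -1.29 to -0.21 (adjusted p = 0.0616). For hypidone against control it was -0.14 ± 0.24, with an interval of -0.68 to 0.40.

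Whether Pdgfra passed the threshold depended on single libraries and on the tool. Without control 5 the log2 fold change for MCAO against control was 0.83 (edgeR adjusted p = 0.0425), without MCAO 4 it was 0.78 (adjusted p = 0.0326), and without MCAO 5 it was 0.34. Without both control 5 and MCAO 5 it was 0.57 (adjusted p = 0.0131), and limma voom gave 0.67 (adjusted p = 0.00145). The adjusted p lay between 0.00145 and 0.263 over the 20 alternatives, and the value was above 0 in all 20. Between hypidone and MCAO the gene passed without control 5 (adjusted p = 0.0364), without MCAO 4 (adjusted p = 0.0206), without both control 5 and MCAO 5 (adjusted p = 0.0160), in DESeq2 (adjusted p = 0.0207) and in limma voom (adjusted p = 0.00103), and the adjusted p lay between 0.00103 and 0.171 over 19 alternatives. Its value was -0.48 without MCAO 5. The authors' deposited table gives Pdgfra a fold of 0.596 with a q-value of 0.0158 for that comparison, and 1.52 with 0.175 for MCAO against control. Of the 9 genes, only Pdgfra had a q-value under 0.05 for hypidone against MCAO in the authors' deposited table, where 23.3% of genes did. For MCAO against control 0 of the 9 did in the authors' deposited table, where 18.3% of genes did.

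Cspg4 encodes the NG2 proteoglycan of the precursor surface. It was at 10.6, 13.4 and 10.04 CPM in control 4, 5 and 6, at 12.3, 18.0 and 14.6 in MCAO 4, 5 and 6, and at 12.1, 10.9 and 10.1 in hypidone 2, 7 and 8. As with Pdgfra, every MCAO library lay above every hypidone library, and control 5 lay within the MCAO range. Log2 fold changes were 0.40 ± 0.19 for MCAO against control (edgeR adjusted p = 0.163) and -0.44 ± 0.19 for hypidone against MCAO (adjusted p = 0.139). Over the alternatives the first lay between 0.26 and 0.53 and the second between -0.56 and -0.29, and each passed the threshold only in limma voom.

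Markers of other cells that express the receptor genes were highest in MCAO 5, as Pdgfra and Cspg4 were. The 9 pericyte genes summed to 156 to 264 CPM in control, 205 to 496 in MCAO and 230 to 283 in the hypidone libraries, and 2 of 9, Pdgfrb and Notch3, were called higher with MCAO and lower with hypidone against MCAO. The 9 fibroblast genes summed to 170 to 224 CPM in control, 236 to 2149 in MCAO and 216 to 803 in the hypidone libraries, with 1 of 9, Igf2, called higher with MCAO and 0 called for hypidone against MCAO. No gene of these lists was at 0 in any library. Hypidone 7, the highest of its group for fibroblast genes, was at 39.2 CPM for Pdgfra, between hypidone 2 and hypidone 8. Control 5, the highest control for Pdgfra, was at 213 CPM for the summed fibroblast genes, between control 6 and control 4. Of these genes only Dcn and Lum were highest among the controls in control 5. Dcn was at 57.9 CPM there, against 16.6 and 9.74 in control 4 and 6, and Lum at 6.08, against 2.14 and 1.92. Cell division genes summed to 252 CPM in MCAO 5 and 101 in MCAO 6, and to 60.2 to 72.2 CPM in the other 7 libraries, and Ccna2 alone of the 14 was called, for MCAO against control. The part of these cells in the Pdgfra and Cspg4 values was not tested.

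Olig1, Olig2 and Sox10, the transcription factor genes of the whole lineage, had overlapping groups in every comparison. Olig2 was at 20.9, 35.4 and 25.4 CPM in control 4, 5 and 6, at 20.3, 23.8 and 24.1 in MCAO 4, 5 and 6, and at 24.3, 22.5 and 21.4 in hypidone 2, 7 and 8. Apart from control 5, all libraries lay between 20.3 and 25.4 CPM. The fold for hypidone against MCAO was 1.001, with a 95% interval of 0.742 to 1.35. For MCAO against control it was 0.834, with an interval of 0.619 to 1.12. Without control 5 its log2 fold change for MCAO against control was -0.03, in place of -0.26 ± 0.19.

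Olig1, its neighbour and close relative, was at 78.6, 124 and 86.7 CPM in the controls, 65.3, 99.6 and 90.5 in MCAO and 80.2, 77.9 and 79.7 in the hypidone libraries. The groups overlapped, with MCAO 4 the lowest of all 9 libraries and control 5 the highest. The log2 fold changes were -0.18 ± 0.20 for MCAO against control and -0.10 ± 0.20 for hypidone against MCAO. Sox10, which encodes the SOX factor that drives the lineage and its myelin genes, was at 20.7, 47.1 and 27.8 CPM in the controls, 23.7, 34.4 and 28.0 in MCAO and 35.3, 22.3 and 22.2 in the hypidone libraries. Values spread 2.27-fold within control, and the log2 fold changes were -0.15 ± 0.31 and -0.11 ± 0.31. Leaving out control 5 gave 0.24 for Sox10 and 0.04 for Olig1 in MCAO against control, each the opposite sign.

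Among genes of the committed precursor and the newly formed oligodendrocyte, Gpr17 and Enpp6 varied widely within every group, and Bcas1 within control and MCAO. Gpr17, a G protein-coupled receptor of committed precursors, was at 34.8, 73.2 and 55.0 CPM in the controls, 25.8, 66.0 and 39.4 in MCAO, and 58.1, 66.2 and 36.7 in the hypidone libraries. All 3 groups overlapped. Its log2 fold change was -0.31 ± 0.38 for MCAO against control and 0.29 ± 0.38 for hypidone against MCAO, the 95% intervals running from -1.17 to 0.54 and from -0.56 to 1.15. With 1 library left out the first lay between -0.72 (without MCAO 5) and -0.04 (without control 5), and the second between 0.03 (without MCAO 4) and 0.70 (without MCAO 5).

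Bcas1 marks oligodendrocytes at the onset of myelination. It was at 168, 322 and 199 CPM in the controls, 161, 288 and 217 in MCAO, and 169, 145 and 161 in the hypidone libraries. The hypidone values lay at the lower end of both other groups, which MCAO 4 and control 4 also reached. The log2 fold changes were -0.05 ± 0.27 for MCAO against control, -0.49 ± 0.27 for hypidone against MCAO and -0.54 ± 0.27 for hypidone against control. The last had an unadjusted p of 0.0756 and an adjusted p of 0.9999 (edgeR). For hypidone against MCAO, limma voom alone among the alternatives called Bcas1 (adjusted p = 0.0138). Without control 5 the Bcas1 value was 0.27 for MCAO against control, the opposite sign, and -0.21 for hypidone against control. Without MCAO 5 it was -0.27 for both MCAO against control and hypidone against MCAO. Enpp6, a choline phosphodiesterase gene switched on as oligodendrocytes form, was at 4.06, 9.29 and 6.94 CPM in the controls, 7.73, 18.1 and 4.64 in MCAO, and 11.9, 4.87 and 3.22 in the hypidone libraries. Its range was the widest of the 9, with MCAO 5 and hypidone 2 above all other libraries. Its log2 fold changes were 0.58 ± 0.60 and -0.60 ± 0.60, and without MCAO 5 they were -0.11 and 0.09.

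Myrf encodes the membrane-bound transcription factor required for expression of myelin genes. Its level was 17.2, 48.5 and 30.5 CPM in control 4, 5 and 6, 48.5, 41.0 and 49.5 CPM in MCAO 4, 5 and 6, and 40.5, 23.8 and 18.7 CPM in hypidone 2, 7 and 8. The MCAO libraries lay above all hypidone libraries, MCAO 5 only just above hypidone 2, and above control 4 and control 6. The log2 fold change was 0.53 ± 0.37 for MCAO against control (edgeR adjusted p = 0.334) and -0.74 ± 0.38 for hypidone against MCAO (adjusted p = 0.191). Without control 5 the first was 0.95, without both control 5 and MCAO 5 it was 1.06, and without control 4 it was 0.23. With 1 library left out the second lay between -1.13 (without hypidone 2) and -0.52 (without hypidone 8). Among the alternatives limma voom alone called Myrf, for MCAO against control (adjusted p = 0.0224) and for hypidone against MCAO (adjusted p = 0.0110). Unlike in the other 8 genes, MCAO 5 was not above MCAO 4 for Myrf.

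**Figure D2:**
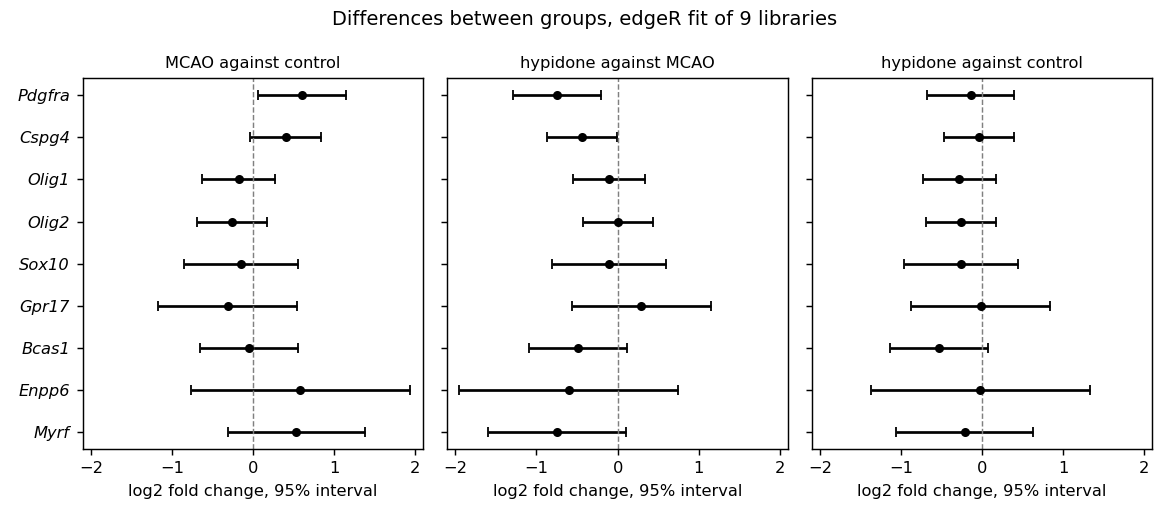
Log2 fold changes (horizontal axis) of the 9 genes in the 3 comparisons from the edgeR fit of 9 libraries, with 95% intervals not adjusted over genes. The intervals of Pdgfra leave out 0 in both comparisons with MCAO and that of Cspg4 for hypidone against MCAO, and none of the 9 passed after adjustment.

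Between MCAO and hypidone the groups did not overlap for 3 of the 9 genes, Pdgfra, Cspg4 and Myrf, all lower with hypidone, where 19% of all tested genes were lower without overlap and 39.9% did not overlap in either direction. Between MCAO and control the values of 0 of 9 were apart, against 33.5% of all genes, and between hypidone and control 0 of 9, against 6.57%.

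Levels relative to Olig2 in the same library were examined after the values above had been seen, since Olig2 is expressed through the whole lineage and had the smallest spread of the 9 genes over all libraries on the log2 scale (SD 0.22). The ratio of Pdgfra to Olig2 was 1.81, 1.60 and 1.47 in control 4, 5 and 6, 2.41, 3.81 and 2.53 in MCAO 4, 5 and 6, and 1.72, 1.74 and 1.80 in hypidone 2, 7 and 8. Every MCAO library lay above every library of the other groups, control 5 included. Control 5 was the highest control for Olig2, and for Sox10 used below, so dividing by either gene lowers it beside the other controls. The separation of MCAO from control in these ratios follows in part from that choice. The ratio was also apart for Cspg4, at 0.378 to 0.507 in control, 0.606 to 0.757 in MCAO and 0.474 to 0.497 with hypidone. For Myrf it was 0.821 to 1.37, 1.72 to 2.39 and 0.873 to 1.67. Each of these differences had an exact permutation p of 0.1, two-sided, the smallest that 3 against 3 libraries allow. Any 2 groups of 3 libraries without overlap give this p, so it adds nothing to the lack of overlap. Of the 8 genes 3 had a higher ratio without overlap for MCAO against control, where 20.2% of all tested genes did, and 4 a lower one for hypidone against MCAO, where 18% did.

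The fourth was Bcas1, whose ratio to Olig2 was 7.95 to 12.1 in MCAO and 6.44 to 7.53 with hypidone, and 7.84 to 9.10 in control. It was thus the only 1 of the 8 also lower without overlap for hypidone against control, where 0.264% of all tested genes were. None of the 8 was higher without overlap, and the share of all genes in that direction is not given here. Every ratio to Olig2 in that comparison carries the log2 fold change of Olig2 itself, -0.26 ± 0.19. Relative to Sox10 in place of Olig2, Pdgfra, Cspg4 and Myrf were again apart in both comparisons with MCAO, where 10.2% of genes were higher for MCAO against control and 8.07% lower for hypidone against MCAO. None of the 8 was apart between hypidone and control on that ratio, where 0.312% of genes were lower without overlap. The share of genes higher without overlap is not given here. The ratios of Olig1, Sox10, Gpr17 and Enpp6 to Olig2 overlapped between all groups. A ratio shows unequal differences of its 2 genes and not which of them differed.

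**Figure D3:**
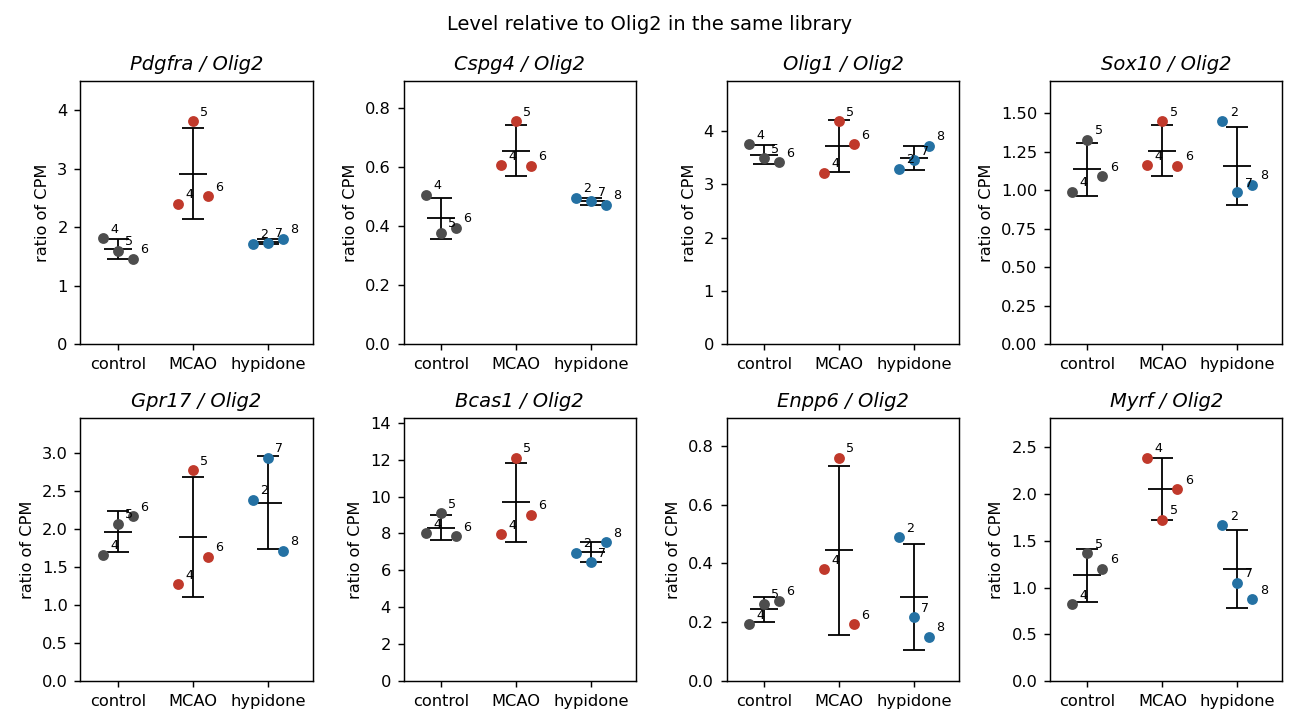
Ratio of the CPM of each of 8 genes to that of Olig2 in the same library (vertical axes, from 0), with title numbers beside the points and the mean with SD (n = 3) as bars. The ratios of Pdgfra, Cspg4 and Myrf are higher in each MCAO library than in any library of the other groups.

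Other genes of the precursor stage split in direction. As background for the counts of genes by direction that follow, 10.6% of all tested genes were called higher and 9.81% lower for MCAO against control, and 8.23% higher and 8.28% lower for hypidone against MCAO. Of 16 tested, 1 was called higher and 4 lower for MCAO against control, and 3 higher and 1 lower for hypidone against MCAO, with median log2 fold changes of 0.13 and -0.08. Vcan, a matrix proteoglycan gene also expressed outside the lineage, rose from 12.5 ± 2.86 to 36.0 ± 12.1 CPM (SD, n = 3) with MCAO, a log2 fold change of 1.52 ± 0.29 (edgeR adjusted p = 0.0101), and was at 13.6 ± 3.09 CPM with hypidone. Sox8, a close relative of Sox10, fell by 0.99 on the log2 scale with MCAO (SE 0.13, adjusted p = 0.00418), from 45.7 ± 1.83 to 23.1 ± 1.55 CPM, and was at 43.7 ± 6.07 CPM with hypidone. Cspg5, a proteoglycan gene that neurons and astrocytes also express, fell by 0.72 with MCAO (SE 0.18, adjusted p = 0.0257). The call of Cspg5 was lost without control 4, control 6 or MCAO 6, the adjusted p lying between 0.0668 and 0.0895, and in the edgeR fit of only control and MCAO (adjusted p = 0.0808).

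Between MCAO and hypidone, Sox8 rose by 0.92 ± 0.13 (edgeR adjusted p = 0.00551), Cspg5 rose by 0.82 ± 0.18 (adjusted p = 0.0199) and Vcan fell by 1.40 (SE 0.29, adjusted p = 0.0157). The Vcan call was lost without MCAO 6, hypidone 2 or hypidone 8, and that of Cspg5 without MCAO 6 or any hypidone library, the adjusted p lying between 0.0534 and 0.0774.

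Other genes of the committed and newly formed stages were called in 1 direction per comparison: of 14 tested, 3 were higher and 0 lower for MCAO against control, and 0 higher and 4 lower for hypidone against MCAO. Median log2 fold changes were 0.34 and -0.38. Sirt2, a deacetylase gene abundant in oligodendrocytes, was at 198 ± 20.5 CPM in control, 273 ± 20.4 in MCAO and 181 ± 2.84 with hypidone, with log2 fold changes of 0.46 ± 0.12 (edgeR adjusted p = 0.0259) and -0.59 ± 0.12 (adjusted p = 0.0134). The calcium channel gene Itpr2 rose by 0.94 ± 0.25 with MCAO (adjusted p = 0.0290) and Mpzl1 by 0.80 ± 0.22 (adjusted p = 0.0357). With hypidone against MCAO, Mpzl1 fell by 0.91 (SE 0.22, adjusted p = 0.0266) and Plekha1 by 0.43 (SE 0.12, adjusted p = 0.0404). Itpr2 was also called lower there, by 0.88 (SE 0.25, adjusted p = 0.0409), a call not followed under the alternatives.

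The calls that were followed depended on single libraries and on the fit. For MCAO against control each of Sirt2, Itpr2 and Mpzl1 lost its call without control 4, control 6, MCAO 6 or hypidone 7, Sirt2 and Mpzl1 also without hypidone 2, Sirt2 and Itpr2 without hypidone 8 and Mpzl1 without MCAO 5, the adjusted p lying between 0.0503 and 0.114. In hypidone against MCAO, Sirt2, Mpzl1 and Plekha1 lost theirs without MCAO 6 or any hypidone library, and Plekha1 also without control 4 or control 6, the adjusted p lying between 0.0520 and 0.152. In the edgeR fit of only control and MCAO, Sirt2, Itpr2 and Mpzl1 were not called (adjusted p = 0.104, 0.0929 and 0.0883). Limma on log2 of FPKM did not call Itpr2 for MCAO against control with a pseudocount of 1 or 0.1 (adjusted p = 0.0716 and 0.0663), nor Mpzl1 with 1 (adjusted p = 0.0541). Plekha1 lost its call in edgeR with no filter (adjusted p = 0.0548) and in the fit of only MCAO and hypidone (adjusted p = 0.0698).

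Signals and brakes of the lineage gave 2 genes higher and 1 lower of 19 tested for MCAO against control, and 1 higher and 2 lower for hypidone against MCAO. Hes5, a Notch target gene that holds back differentiation and is also expressed in astrocytes, fell by 1.89 on the log2 scale with MCAO (SE 0.31, edgeR adjusted p = 0.00680), from 6.00 ± 0.46 to 1.62 ± 0.59 CPM, and was at 6.25 ± 1.34 CPM with hypidone, a rise of 1.95 ± 0.31 (adjusted p = 0.00737). The receptor gene Notch1 rose by 0.92 ± 0.19 with MCAO (adjusted p = 0.0141) and fell by 0.86 with hypidone against MCAO (SE 0.19, adjusted p = 0.0204). Bmpr1a, a receptor gene for bone morphogenetic proteins, rose by 0.75 ± 0.15 (adjusted p = 0.0109) and fell by 0.73 (SE 0.15, adjusted p = 0.0147). The calls of Notch1 and Bmpr1a for hypidone against MCAO were lost without MCAO 6 or any hypidone library, the adjusted p lying between 0.0520 and 0.0886, and that of Notch1 for MCAO against control without control 6 (adjusted p = 0.0553). In the edgeR fit of only control and MCAO neither Bmpr1a nor Notch1 was called (adjusted p = 0.0552 and 0.0580). Pdgfa, whose product is the main ligand of the Pdgfra receptor, had log2 fold changes of -0.32 and 0.39, neither called. The other platelet-derived growth factor genes listed differed in direction. Pdgfb had -0.05 and 0.20, Pdgfc 0.56 and -0.44, and Pdgfd 1.48 and -1.47, none called.

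Mature myelin genes had 0 of 16 higher and 6 lower for MCAO against control, and 1 higher and 0 lower for hypidone against MCAO, with median log2 fold changes of -0.58 and 0.17. Opalin, a membrane protein gene of mature oligodendrocytes, fell by 1.79 with MCAO (SE 0.29, edgeR adjusted p = 0.00665), from 30.3 ± 13.7 to 8.75 ± 1.54 CPM, and was at 19.0 ± 1.63 CPM with hypidone. Ppp1r14a fell by 1.42 (SE 0.26, adjusted p = 0.00905) and Mog by 0.95 (SE 0.23, adjusted p = 0.0219). Opalin was higher with hypidone than with MCAO, at 1.12 ± 0.29 (adjusted p = 0.0316), a call lost without MCAO 6 or any hypidone library, the adjusted p lying between 0.0778 and 0.112, and in limma on log2 of FPKM plus 1 (adjusted p = 0.0502). Mog lost its call without control 6 or MCAO 6, with an adjusted p of 0.0588 and 0.0800. In the edgeR fit of only control and MCAO neither Ppp1r14a nor Mog was called (adjusted p = 0.0504 and 0.0683). Control 5 held the highest Opalin level, at 46.1 CPM. Myrf, which acts on myelin genes, was not called in either comparison in the edgeR fit of all libraries.

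**Figure D4:**
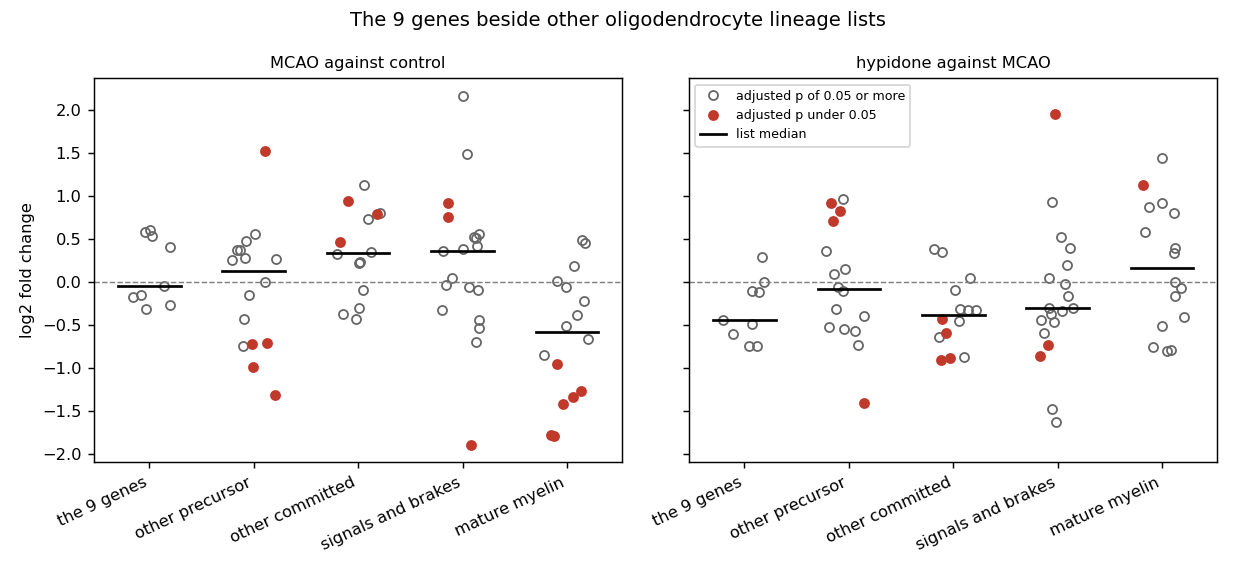
Log2 fold changes (vertical axis) of the 9 genes and of 4 other lists of the lineage for MCAO against control (left) and hypidone against MCAO (right), 1 point per tested gene, spread sideways at random, with filled points at an adjusted p under 0.05 and a line at each median. The 9 genes have no filled point, and 6 of 16 mature myelin genes are filled below 0 on the left.

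Markers of other cells gave 8 of 12 microglia and macrophage genes higher for MCAO against control and 6 of 12 lower for hypidone against MCAO, and 3 of 10 astrocyte genes higher and 2 of 10 lower. Of 10 neuron genes 1 was lower and 2 were higher in these comparisons, of 9 striatal neuron genes 1 and 2, and of 9 tested hippocampal neuron genes 2 were lower and 0 were called. Of 6 tested choroid plexus genes 1 was lower and 0 were called, and of 4 tested Schwann cell genes 1 was higher and 1 lower, then 1 higher. For hypidone against control 0 genes were called in any list. The part of these cell types in the values of the 9 genes was not tested.

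The genes most like each of the 9 over the 9 libraries were found by the root mean square difference of log2 CPM, each gene first centred on its own mean, among 12566 genes whose log2 CPM averaged 1 or more. For Pdgfra these were Gng12 at 0.07 and Twf1 at 0.10 log2 units, against a median of 0.51 over all genes compared. Atad2b at 0.05 and Dmxl1 at 0.06 were nearest to Cspg4. The nearest to Olig1 were Tor1b and Psmg4, to Olig2 Sbf1 and Sipa1l2, to Sox10 Fezf2 and Slco3a1, to Gpr17 Cdh11 and Mmp16, to Bcas1 Tspan15 and Slc39a11, and to Myrf Pcnx and Pcsk5, with differences between 0.07 and 0.19. Only for Enpp6 was the nearest gene, Zfp488 at 0.37, from the lists above, followed by Pcdhga10 at 0.39. Within the 9, Olig1 and Olig2 differed least from each other, at 0.11, and Pdgfra and Cspg4 by 0.16. Many genes outside the 9 were nearer. Among all genes compared, Olig2 ranked 12 in nearness to Olig1 and Olig1 ranked 17 to Olig2. Cspg4 ranked 50 to Pdgfra and Pdgfra ranked 277 to Cspg4. Of the neighbours named here only Twf1 was called, for hypidone against MCAO, at -0.70 (edgeR adjusted p = 0.0307). Of all tested genes 16.5% were called in that comparison and 20.4% for MCAO against control. The neighbours were chosen for patterns like those of genes not called, so few calls among them follow from the choice.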

How the data were processed

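Total RNA from brain was sequenced in 9 libraries, 3 per group, grouped by the treatment given in the labels. The authors deposited raw counts per gene and FPKM values for each library, and tables of their own comparisons with fold changes (a ratio) and p-values with q-values. Per the submitters' processing notes, DESeq2 and the mm10 build were used. No aligner, counter or handling of strand is given in the sources used here. FPKM values, deposited by the authors, were used to compare levels between genes and in 2 alternative fits.

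Counts were fitted for all 9 libraries with edgeR 4.0.16 (R 4.3.3; TMM scaling, filterByExpr, quasi-likelihood test, Benjamini-Hochberg over 14756 genes, threshold 0.05). The filter removed genes with low counts from 18138. CPM values were scaled by TMM, and 95% intervals used the fit's total degrees of freedom. Ratios to Olig2 and Sox10 were tested by exact permutation, two-sided. The code was tested on simulated data. The precision of each value is limited by 3 libraries per group more than by depth, which was 32075682 to 37325027 counts.

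The 9 genes and the 14 gene lists beside them were chosen with earlier results of these data known. Genes named were the 9, up to 3 called genes with the lowest p per list and comparison, and the 2 genes nearest in pattern to each of the 9 (root mean square difference of log2 CPM with a prior count of 2). Pdgfa was named in addition, as the ligand of the Pdgfra receptor, after its values had been seen, and Pdgfb, Pdgfc and Pdgfd were named beside it. Genes named by this rule in lists of other cell types are given as counts, apart from Pdgfrb, Notch3, Igf2 and Ccna2. Dcn and Lum were named outside the rule, for their level in control 5, and so was Itpr2 for hypidone against MCAO, beside its value for MCAO against control. Alternatives were other scaling, other filters, DESeq2 1.42.0, limma 3.58.1 (voom with quality weights on counts, and log2 of FPKM plus 1 or 0.1), fits of only the groups compared, a replicate block, and each library left out. The fit without both control 5 and MCAO 5 was added after seeing the data.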

Additional observations from a re-analysis of the deposited data

How the results depend on the processing

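The count of all genes called for MCAO against control was 3015, and it was 7428 in limma voom, 682 in the fit of only these groups, 4579 without both control 5 and MCAO 5, and between 1093 and 4275 with 1 library left out (1093 without control 6, 1243 without control 4, 1311 without MCAO 6, 1904 and 1976 without hypidone 7 and 8). For hypidone against MCAO it was 2437, and it was 4011 in DESeq2, 7631 in limma voom, 4780 without both libraries, and between 548 and 3875 with 1 left out (3875 without MCAO 4, 729 without MCAO 6, 596, 584 and 548 without hypidone 2, 7 and 8). For hypidone against control it was 0, and 1 in DESeq2. Of the 9 genes, limma voom called 3 for MCAO against control (Pdgfra, Cspg4 and Myrf) and 4 for hypidone against MCAO (these and Bcas1). DESeq2 called 1 in the latter, and the fit without both libraries called 1 in each. With 1 library left out the count was 0 to 1 in each (1 without control 5 or MCAO 4). The cause was not tested.

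Control and MCAO share the title numbers 4, 5 and 6, which the labels do not tie to a shared source. Same-numbered libraries had correlations of 0.118, 0.123 and -0.042 between their deviations, and 3 of 6 libraries correlated best with their own number. With a replicate block 0 genes were called for MCAO against control. The hypidone numbers are shared with no group.

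Of the log2 fold changes of the 9 genes under the alternatives, 160 of 180 were on the same side of 0 and of the threshold for MCAO against control, 146 of 171 for hypidone against MCAO and 149 of 171 for hypidone against control. Another 6 and 8 in the first and second passed the threshold, and the rest changed sign, none of them called. For MCAO against control, Olig1 was 0.053 in voom and -0.31 to 0.038 with 1 library left out. Sox10 was 0.11 in voom, 0.11 without both control 5 and MCAO 5, and -0.39 to 0.24 with 1 left out. Bcas1 was 0.0048 with library totals, 0.16 in voom, 0.0076 and 0.0077 on FPKM plus 1 and plus 0.1, 0.069 without both, and -0.27 to 0.27 with 1 left out. Enpp6 was -0.16 in voom and -0.11 to 0.92 with 1 left out. For hypidone against MCAO, Olig1 was 0.0071 without both and -0.26 to 0.0077 with 1 left out, Sox10 0.024 and -0.37 to 0.025, and Enpp6 0.091 and -1.32 to 0.091. Olig2 was -0.010 with DESeq2 size factors, -0.035 with library totals, -0.0039 with the CPM filter, -0.010 in DESeq2, -0.075 in voom, -0.024 and -0.025 on FPKM plus 1 and plus 0.1, and -0.069 to 0.048 with 1 left out. For hypidone against control, the value without both libraries and the range with 1 left out were 0.092 and -0.25 to 0.085 for Pdgfra, 0.104 and -0.12 to 0.098 for Cspg4, 0.138 and -0.52 to 0.132 for Sox10, 0.26 and -0.26 to 0.26 for Gpr17, 0.28 and -0.74 to 0.31 for Enpp6, and 0.22 and -0.60 to 0.21 for Myrf. In that comparison voom gave 0.036 for Pdgfra, 0.064 for Cspg4 and 0.23 for Gpr17, and FPKM plus 1 and plus 0.1 gave 0.010 and 0.013 for Gpr17. Other scalings moved the median of all genes by under 0.1 on the log2 scale.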
